A study of Mus musculus with 10 samples.

Results

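A set of 10 genes was followed in mouse heart tissue: the transcription factor genes Foxo1, Foxo3 and Foxo4, and 7 genes known from muscle atrophy and from the response to FOXO factors, namely Fbxo32, Trim63, Klf15, Cited2, Gadd45b, Sesn1 and Bnip3. They were chosen by symbol, and all 10 of them were found among the 31655 gene identifiers of the count table and passed the filter on low counts. RNA sequencing covered 5 libraries of an LPS group and 5 libraries of a baicalin plus LPS group. Mice of both groups received 1 injection of 10 mg/kg lipopolysaccharide (LPS), the endotoxin of Gram-negative bacteria, into the peritoneal cavity. Baicalin, a flavone glucuronide from plants, was given by gavage at 100 mg/kg for 14 days before the injection in the baicalin plus LPS group, and the LPS group got water instead. Hearts were collected 72 hours after the injection. The design text gives 8 mice per group, and the sources used here state no strain, sex or age, and a group that got saline in place of LPS was not analysed here. Libraries are not tied to single mice in the labels, and each p-value therefore reflects only how far these libraries spread, which may be technical in part.

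FOXO proteins are forkhead transcription factors that growth signals hold back. When insulin or growth factors activate PI3K, the kinase AKT phosphorylates FOXO proteins, which then leave the nucleus, and when the signal falls FOXO proteins return and switch on genes for protein breakdown, autophagy, stress defence and use of fat. In heart and skeletal muscle the best known of these genes encode the ubiquitin ligases atrogin-1 (Fbxo32) and MuRF1 (Trim63), which mark muscle proteins for the proteasome. The title of the study names the PI3K/AKT pathway, and transcript levels do not report the phosphorylation or location of FOXO proteins.

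Promoter windows of 8 of the 10 genes were available from RefSeq on GRCm38.p6, each with 250 bases before and 50 bases after an annotated start. Sesn1 had 2 of the 9 windows, and Foxo4 and Fbxo32 had none. The windows that held a match to 1 of 3 motifs are shown, 5′ to 3′ on the gene's strand, because they carry the letters through which FOXO, glucocorticoid receptor and E-box binding factors are known to read DNA. Capitals mark the forkhead motif GTAAACA, the palindromic glucocorticoid receptor motif (GAACA, 3 bases of any kind and the reverse complement of GAACA) and the E-box CACGTG, which contains the hypoxia response core ACGTG, each searched on both strands.
Trim63, chr4:134314870-134315169, plus strand: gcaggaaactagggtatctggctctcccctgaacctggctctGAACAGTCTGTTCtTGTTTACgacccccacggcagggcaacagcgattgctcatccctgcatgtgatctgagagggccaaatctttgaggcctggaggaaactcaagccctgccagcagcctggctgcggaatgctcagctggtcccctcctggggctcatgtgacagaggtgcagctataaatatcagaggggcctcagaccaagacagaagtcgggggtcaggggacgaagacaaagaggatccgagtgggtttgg
Sesn1, chr10:41810324-41810623, plus strand: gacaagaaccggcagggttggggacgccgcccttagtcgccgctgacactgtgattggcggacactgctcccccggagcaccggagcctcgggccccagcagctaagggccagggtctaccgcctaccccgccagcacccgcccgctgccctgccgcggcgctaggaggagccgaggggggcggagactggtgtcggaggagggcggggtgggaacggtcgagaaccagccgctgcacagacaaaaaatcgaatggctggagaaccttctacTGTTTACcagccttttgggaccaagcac
Klf15, chr6:90462326-90462625, plus strand: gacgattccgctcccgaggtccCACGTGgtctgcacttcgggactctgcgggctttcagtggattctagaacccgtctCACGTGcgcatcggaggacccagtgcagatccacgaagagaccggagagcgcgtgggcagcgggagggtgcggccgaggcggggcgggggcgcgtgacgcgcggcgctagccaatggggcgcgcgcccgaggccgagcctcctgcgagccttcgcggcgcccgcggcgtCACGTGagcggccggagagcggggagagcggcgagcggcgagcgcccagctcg
Bnip3, chr7:138909457-138909756, minus strand: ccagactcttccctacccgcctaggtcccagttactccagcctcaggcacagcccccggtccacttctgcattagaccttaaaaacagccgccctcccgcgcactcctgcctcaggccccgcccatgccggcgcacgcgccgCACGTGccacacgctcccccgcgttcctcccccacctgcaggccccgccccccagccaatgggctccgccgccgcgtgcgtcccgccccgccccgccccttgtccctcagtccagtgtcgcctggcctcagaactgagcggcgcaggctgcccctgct
Cited2, chr10:17722978-17723277, plus strand: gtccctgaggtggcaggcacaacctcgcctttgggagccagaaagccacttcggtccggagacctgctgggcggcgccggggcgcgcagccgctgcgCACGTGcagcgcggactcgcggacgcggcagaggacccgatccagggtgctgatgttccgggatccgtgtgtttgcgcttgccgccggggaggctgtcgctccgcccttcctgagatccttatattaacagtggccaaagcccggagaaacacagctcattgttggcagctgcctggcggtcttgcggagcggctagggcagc
Gadd45b, chr10:80929841-80930140, plus strand: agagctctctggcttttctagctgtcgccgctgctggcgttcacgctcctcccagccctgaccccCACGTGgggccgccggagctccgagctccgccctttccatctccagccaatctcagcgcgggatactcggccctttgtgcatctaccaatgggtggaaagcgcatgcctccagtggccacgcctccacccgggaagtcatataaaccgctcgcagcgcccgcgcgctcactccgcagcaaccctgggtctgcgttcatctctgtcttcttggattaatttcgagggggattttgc

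The forkhead motif was found in 2 of the 9 windows, both times on the opposite strand, with its first base at -194 from the start of Trim63 and at position 23 after the start of Sesn1. It stood in 3.66% of all 32544 distinct promoter windows. In Trim63 the glucocorticoid receptor palindrome began at -208, 1 base short of touching the forkhead motif, and 18 of all windows (0.0553%) held that palindrome. The E-box stood in 4 of the 9 windows, 3 times in Klf15 (at -228, -172 and -3) and once each in Cited2 (-153), Gadd45b (-185) and Bnip3 (-108), against 7.17% of all windows. The shorter core ACGTG was found in the same 4 windows and in 19.7% of all windows. The windows of Foxo1 and Foxo3 and the second window of Sesn1 held none of these motifs. The E-box and the palindrome were picked after the windows had been read. The insulin response motif CAAAACA was found in 0 of the 9 windows and in 6.32% of all windows. The glucocorticoid half-site AGAACA, which overlaps the palindrome, was found in Trim63 alone of the 9 windows, against 18.9% of all windows. A match describes the letters and was not tested as a binding site.

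On GRCm38, the genes lie on 7 chromosomes, and 4 of the 10 lie on chromosome 10, which holds 4.83% of the genes tested. These 4 are Cited2 (ENSMUSG00000039910) from 17723218 to 17725674, Sesn1 (ENSMUSG00000038332) from 41809935 to 41908424, Foxo3 (ENSMUSG00000048756) from 42181841 to 42276755 and Gadd45b (ENSMUSG00000015312) from 80930073 to 80932204. On other chromosomes lie Foxo1 (ENSMUSG00000044167) from 52268336 to 52353221 of chromosome 3, Trim63 (ENSMUSG00000028834) from 134315120 to 134329629 of 4 and Klf15 (ENSMUSG00000030087) from 90462576 to 90475238 of 6. The remaining genes are Bnip3 (ENSMUSG00000078566) from 138890836 to 138909519 of chromosome 7, Fbxo32 (ENSMUSG00000022358) from 58175879 to 58214932 of 15 and Foxo4 (ENSMUSG00000042903) from 101254528 to 101260873 of X. Counts were deposited per gene, and the sources used here do not state whether counting used strand. Fbxo32 overlaps Gm15943 of the opposite strand, and unstranded counting could not separate their reads. Gm15943 itself had 2.57 and 1.38 CPM (read counts per 1e6 counts, scaled by TMM) on average in the LPS and baicalin plus LPS groups. Foxo1, Sesn1 and Bnip3 overlap annotated transcripts of under 0.5 CPM or without counts in the table.

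All 10 genes had lower mean values with baicalin, and in edgeR none of the differences passed the threshold after adjustment over the whole table. Negative fold changes were found for 10 of 10 genes against 50.6% of the 16850 genes tested, and the median log2 fold change was -0.51 against 0.00 over all genes. An edgeR quasi-likelihood test with Benjamini-Hochberg adjustment at 0.05 called 0 of the 10, as it called 0% of all genes tested, with adjusted p between 0.324 and 0.704. At an unadjusted p under 0.05, 6 of the 10 were lower (Foxo1, Foxo3, Klf15, Cited2, Gadd45b and Sesn1), against 5.88% of all genes lower and 11.1% in either direction. Groups that did not overlap were found for 1 of the 10, Gadd45b, against 2.46% of all genes. DESeq2 called 0 of the 10, against 1.58% of all genes in either direction and 0.896% lower, and limma-voom called 0 of the 10 and 0% of all genes. Limma-voom with sample quality weights called 5 of the 10 (Foxo1, Foxo3, Klf15, Cited2 and Sesn1), all lower, against 17.7% of all genes called and 8.2% called lower. That fit gave LPS library 4 a weight of 0.16 and LPS libraries 1, 2 and 3 weights from 2.33 to 3.17.

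**Figure D1:**
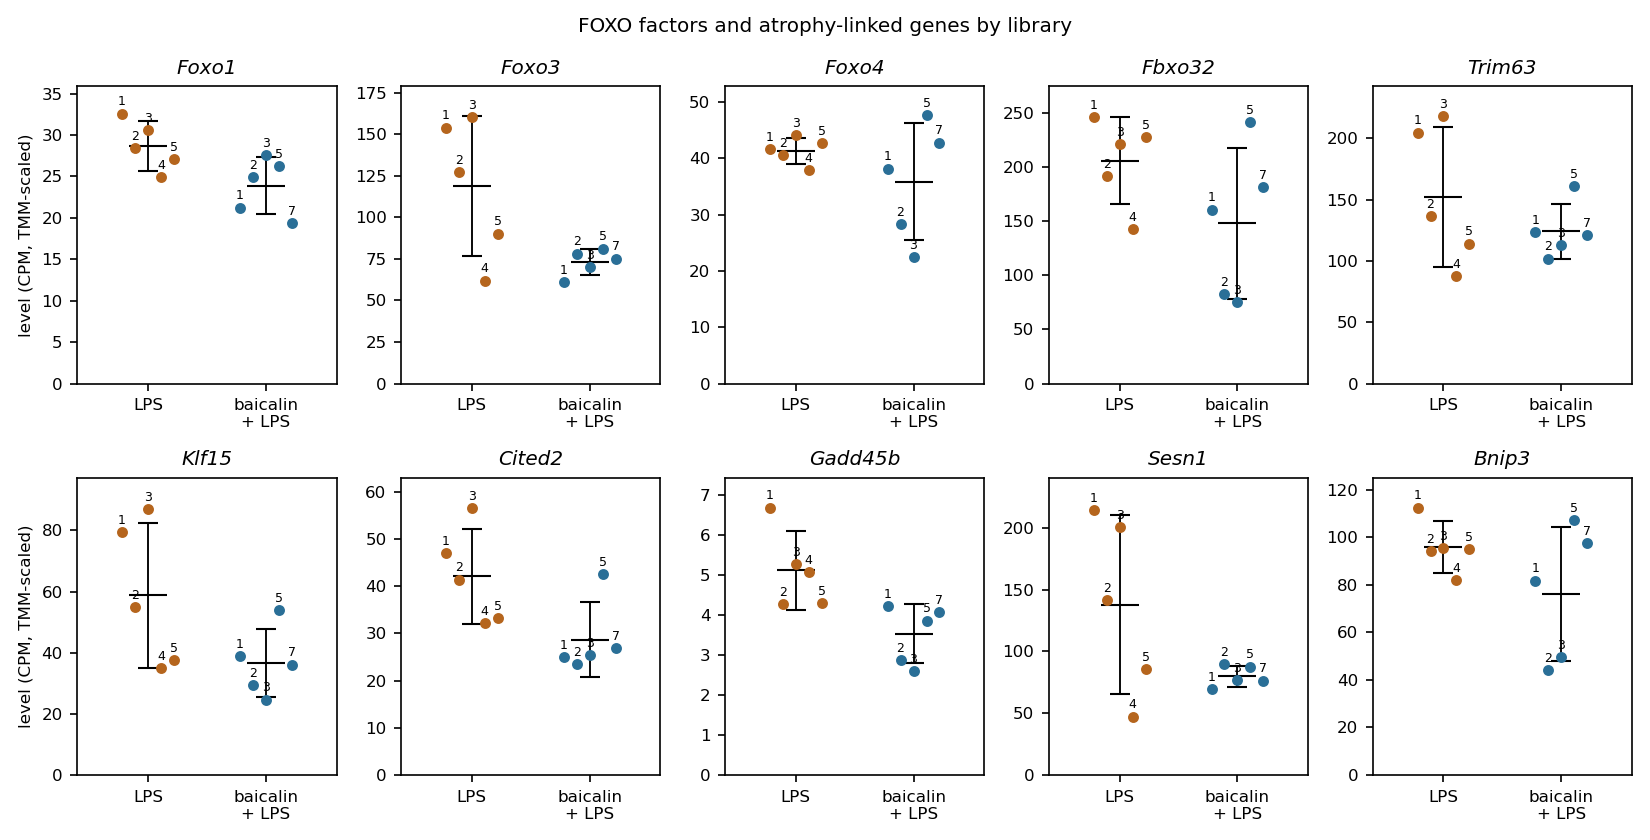
Level of each gene (CPM scaled by TMM, linear axis from 0) in each of the 10 libraries, with the library's number beside its point and the mean ± SD of each group of 5 in black. Foxo3, Sesn1 and Klf15 are highest in LPS libraries 1, 2 and 3, while Fbxo32, Bnip3 and Foxo4 are lowest in baicalin plus LPS libraries 2 and 3.

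Within the groups, 2 sets of libraries stood apart. LPS libraries 1, 2 and 3 were low in the acute-phase transcripts Saa3, Lcn2 and Serpina3n, whose summed level was 19.0 to 23.4 CPM there. That sum was 2312 CPM in LPS library 4, 1233 CPM in LPS library 5 and 442 to 1562 CPM with baicalin. Thus 3 of the 5 libraries labelled LPS lacked the acute-phase level of the other 7 libraries, which carry the same injection in their labels. The labels were kept, and every fold change given here compares baicalin with a group that holds these 3 libraries. LPS libraries 1, 2 and 3 also had the highest sums over 10 cardiomyocyte markers, from 73708 to 81835 CPM. The other 7 libraries had 39479 to 54463 CPM. Of these 10 markers, 8 had negative fold changes, 3 of them at an unadjusted p under 0.05. Sums over 8 smooth muscle and pericyte markers were also highest in LPS libraries 1, 2 and 3, from 1266 to 1372 CPM. The other 7 libraries had 699 to 1044 CPM, and 5 of these 8 markers had negative fold changes. Baicalin plus LPS libraries 2 and 3 were the lowest for Pdk4, a kinase that shuts off glucose oxidation and a known FOXO target, with 142 and 105 CPM against at least 1089.5 CPM in the other 8. They also had the highest sums of 8 fibroblast markers, 1337 and 2009 CPM, and of 10 macrophage markers, 1207 and 1315 CPM. The LPS libraries had 506 to 756.8 CPM of the fibroblast and 195 to 534 CPM of the macrophage markers. All 8 and all 10 had positive fold changes, 3 and 5 of them at an unadjusted p under 0.05. Over all genes tested, 5.88% were lower and 5.26% higher at that p. Of 11 skeletal muscle markers, 9 were tested and 8 had negative fold changes, 2 of them at an unadjusted p under 0.05, with sums of 949.7 to 1643 CPM in the LPS libraries and 738 to 932 CPM with baicalin. Within that list the myogenic factor genes Myod1 and Myf6 were at most 0.26 CPM in any library, while Acta1, which heart muscle also expresses, had 101 to 308 CPM. Ckm, which heart muscle also expresses, was the largest part of these sums. It had 1152 to 1289 CPM in LPS libraries 1, 2 and 3 and 598 and 639 CPM in LPS libraries 4 and 5. With baicalin Ckm had 465 to 558 CPM. Its groups did not overlap, while those of Acta1 did. The defining heart markers Myh6 and Tnni3 were each at least 1562 CPM. LPS library 4 had the smallest mitochondrial share of counts, 30.2%, against 36.5% to 44.1% in the other 9. In bulk tissue, fewer cells of a type and less RNA per cell cannot be told apart.

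Foxo3, the FOXO gene most often studied in muscle wasting, had 154, 127, 160.5, 62.0 and 90.2 CPM in LPS libraries 1 to 5. In baicalin plus LPS libraries 1, 2, 3, 5 and 7 it had 61.2, 78.2, 70.1, 81.2 and 75.2 CPM. LPS libraries 1, 2 and 3 lay above all others, LPS library 5 lay just above the baicalin range, and LPS library 4 lay inside it. The group difference was a log2 fold change of -0.70 ± 0.23 (SE, n = 5 per group, edgeR adjusted p = 0.324, two-sided exact permutation p = 0.0714). Without LPS libraries 1, 2 and 3, which left LPS libraries 4 and 5 in that group, it was -0.05 (adjusted p = 0.926). It was -0.71 when baicalin plus LPS libraries 2 and 3 were dropped.

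Foxo1, which in liver drives glucose production and in the heart is needed early in mouse development, had 32.6, 28.4, 30.6, 24.9 and 27.1 CPM in the LPS libraries. With baicalin it had 21.2, 24.9, 27.5, 26.2 and 19.4 CPM. Its values spanned 1.68-fold from the highest to the lowest library, the narrowest span of the 10 genes, and the groups overlapped. Its log2 fold change was -0.27 ± 0.12 (adjusted p = 0.442, exact p = 0.0635), and -0.11 without LPS libraries 1, 2 and 3.

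Foxo4 had 41.6, 40.5, 44.0, 37.9 and 42.6 CPM in the LPS libraries, the smallest relative spread of the 10 genes in that group (SD 5.61% of the mean). With baicalin it had 38.1, 28.3, 22.5, 47.6 and 42.7 CPM, where libraries 2 and 3 lay below the LPS range, library 5 above it and libraries 1 and 7 inside it. The log2 fold change was -0.21 ± 0.18 (adjusted p = 0.704, exact p = 0.325) and turned to 0.05 when baicalin plus LPS libraries 2 and 3 were dropped (adjusted p = 0.910). Foxo6, the family member known mainly from brain, had 0.578 and 0.91 CPM on average, with a log2 fold change of 0.67 ± 0.56 (adjusted p = 0.690).

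Per gene length, in the authors' FPKM, Foxo3 had 14.9 ± 4.07 and 9.96 ± 1.33 in the LPS and baicalin plus LPS groups (mean ± SD, n = 5 each), and Foxo4 had 11.5 ± 0.948 and 10.4 ± 2.30. The ranges of 1 SD around the means of Foxo3 and Foxo4 overlapped in both groups. Foxo1 was lower, with 3.21 ± 0.179 and 2.84 ± 0.509 FPKM, and Foxo6 was at 0.206 and 0.376 FPKM. Among the other genes Trim63 had the highest level per length, 50.8 ± 14.9 and 44.4 ± 3.44 FPKM, followed by Bnip3 with 41.0 ± 3.86 and 33.8 ± 10.3, Sesn1 with 32.4 ± 14.9 and 20.7 ± 3.05 and Fbxo32 with 28.5 ± 4.88 and 21.2 ± 8.27. Neighbours in this order did not separate by more than their SDs in the LPS group. Klf15 (19.9 ± 6.38 and 13.2 ± 2.74 FPKM) and Cited2 (16.4 ± 2.41 and 11.8 ± 2.02) came next, and Gadd45b had 3.12 ± 0.569 and 2.26 ± 0.386 FPKM, not separated from Foxo1 by more than the SDs.

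Fbxo32, which encodes the F-box protein atrogin-1, had 246, 192, 221, 143 and 228 CPM in the LPS libraries. With baicalin it had 161, 82.8, 75.1, 241 and 181 CPM. Libraries 2 and 3 lay below every other library, while library 5 reached the second highest value of all 10. The log2 fold change was -0.47 ± 0.31 (adjusted p = 0.591, exact p = 0.167), and -0.08 when baicalin plus LPS libraries 2 and 3 were dropped.

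Trim63, which encodes the RING-finger ligase MuRF1 of the sarcomere, had 205, 137, 218, 87.6 and 114 CPM in the LPS libraries. The baicalin plus LPS libraries had 124, 102, 113, 161 and 121 CPM. LPS libraries 1 and 3 were the highest and LPS library 4 the lowest of all 10, so the baicalin values lay inside the LPS range. Its log2 fold change was -0.29 ± 0.24 (adjusted p = 0.685, exact p = 0.429), and it turned to 0.31 without LPS libraries 1, 2 and 3 (adjusted p = 0.529). Its relatives Trim54 (MuRF3) and Trim55 (MuRF2) had log2 fold changes of -0.34 ± 0.33 and 0.09 ± 0.13.

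Klf15, a Krüppel-like factor that restrains heart hypertrophy and steers amino acid and fat use under glucocorticoids, had 79.3, 54.8, 87.0, 35.0 and 37.5 CPM in the LPS libraries. In the baicalin plus LPS libraries the values were 38.8, 29.4, 24.6, 54.0 and 36.1 CPM. LPS libraries 1, 2 and 3 were the 3 highest, with library 2 close to baicalin plus LPS library 5, and baicalin plus LPS libraries 2 and 3 were the 2 lowest. The log2 fold change was -0.68 ± 0.29 (adjusted p = 0.411, exact p = 0.119) and 0.02 without LPS libraries 1, 2 and 3 (adjusted p = 0.978).

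Sesn1 encodes sestrin 1, a stress-induced protein that restrains mTORC1. It had 214, 141, 201, 47.2 and 85.4 CPM in the LPS libraries and 69.5, 89.6, 76.5, 87.6 and 76.2 CPM with baicalin. It had the widest span of the 10 genes, 4.54-fold from LPS library 1 to LPS library 4, so both ends of its range were LPS libraries. The SD was 52.3% of the mean in the LPS group and 10.6% with baicalin. The log2 fold change was -0.79 ± 0.34 (adjusted p = 0.423, exact p = 0.190) and turned to 0.28 without LPS libraries 1, 2 and 3 (adjusted p = 0.604). The related Sesn2 and Sesn3 had log2 fold changes of 0.00 ± 0.19 and -0.07 ± 0.28.

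Cited2, a protein that competes with hypoxia-inducible factors for the coactivators CBP and p300, had 47.0, 41.3, 56.5, 32.2 and 33.3 CPM in the LPS libraries. With baicalin it had 25.0, 23.4, 25.4, 42.6 and 26.9 CPM. Library 5 stood at the LPS level, and the other 4 baicalin libraries lay below all LPS libraries. The log2 fold change was -0.55 ± 0.20 (adjusted p = 0.344, exact p = 0.0476), and -0.18 without LPS libraries 1, 2 and 3.

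Gadd45b, a growth arrest gene whose protein acts on p38 signalling and on DNA demethylation, was the one gene whose groups did not overlap. It had 6.67, 4.26, 5.26, 5.06 and 4.30 CPM in the LPS libraries and 4.22, 2.87, 2.60, 3.85 and 4.06 CPM with baicalin. The gap was narrow, between 4.26 CPM in LPS library 2 and 4.22 CPM in baicalin plus LPS library 1. Its log2 fold change of -0.54 ± 0.19 missed the adjusted threshold (adjusted p = 0.332), and its exact permutation p of 0.00794 is the smallest that 5 against 5 libraries can give. The value was -0.40 without LPS libraries 1, 2 and 3 and -0.34 without baicalin plus LPS libraries 2 and 3. Its relatives Gadd45a and Gadd45g had -0.72 ± 0.35 and -0.36 ± 0.30.

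Bnip3, a mitochondrial outer membrane receptor that brings mitochondria to autophagy, had 112, 94.2, 95.3, 81.9 and 94.9 CPM in the LPS libraries. The values with baicalin were 81.7, 44.0, 49.6, 107 and 97.5 CPM. Libraries 2 and 3 lay far below all others, library 1 lay just under the LPS range, and libraries 5 and 7 lay inside it. The log2 fold change was -0.33 ± 0.23 (adjusted p = 0.622, exact p = 0.206) and 0.00 when baicalin plus LPS libraries 2 and 3 were dropped (adjusted p = 0.994). The paralog Bnip3l had 42.1 and 42.5 CPM on average and a log2 fold change of 0.01 ± 0.10.

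**Figure D2:**
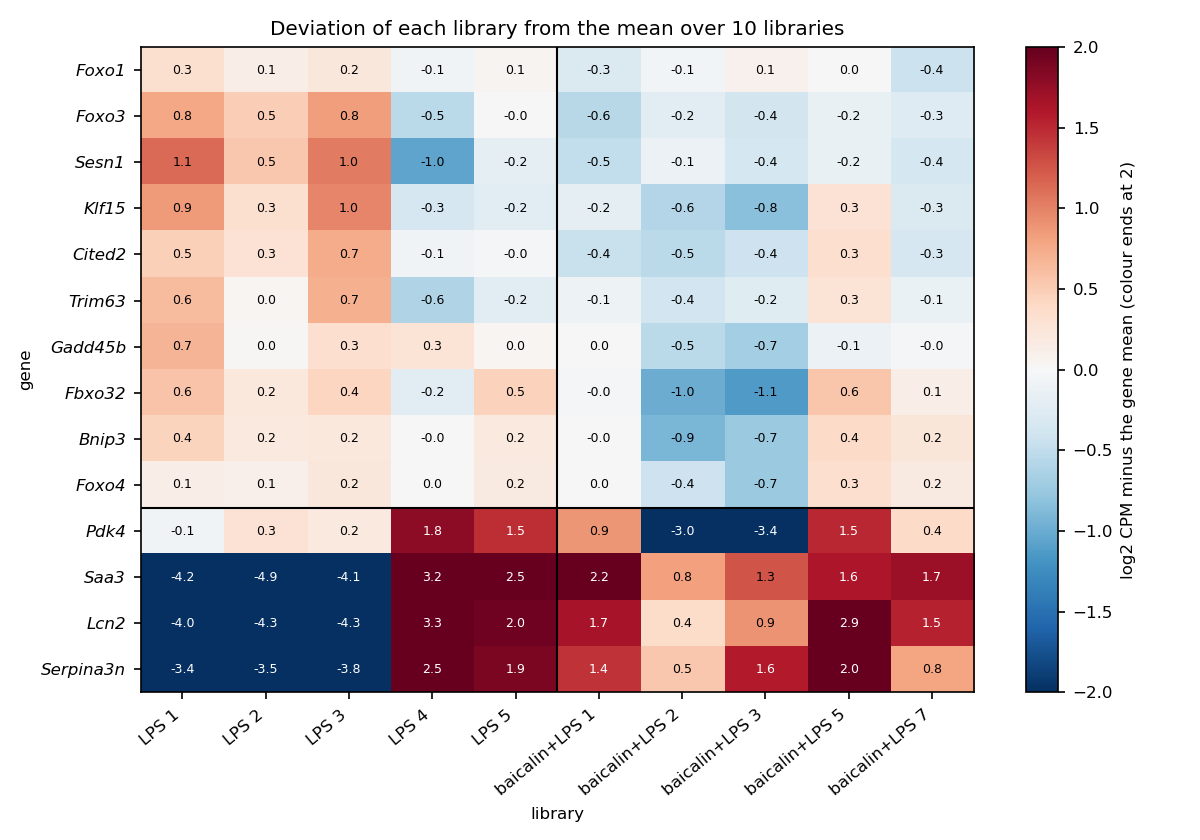
Log2 CPM of each library minus the gene's mean over the 10 libraries, for the 10 genes (upper block) and for Pdk4 and 3 acute-phase genes (lower block), with the groups split by the vertical line and colours ending at 2. Foxo3, Sesn1, Klf15, Cited2 and Trim63 are high in LPS libraries 1 and 3, and Fbxo32, Bnip3, Foxo4 and Gadd45b are low in baicalin plus LPS libraries 2 and 3, where Pdk4 is also lowest.

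Across the 10 genes the same libraries recurred. LPS libraries 1, 2 and 3 were the 3 highest for 4 of them (Foxo1, Foxo3, Klf15 and Sesn1), a pattern held by 9.55% of the genes tested. Baicalin plus LPS libraries 2 and 3 were the 2 lowest for 5 of them (Foxo4, Fbxo32, Klf15, Gadd45b and Bnip3), against 9.41% of the genes tested. LPS library 4 was the lowest LPS library for 9 of the 10, the exception being Gadd45b, against 37.2% of the genes tested. Baicalin plus LPS library 5 was the highest of its group for 7 of the 10, against 26.4%. Only Klf15 showed both of the first 2 patterns. These counts describe libraries, and the part of the markers named above in them was not tested.

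**Figure D3:**
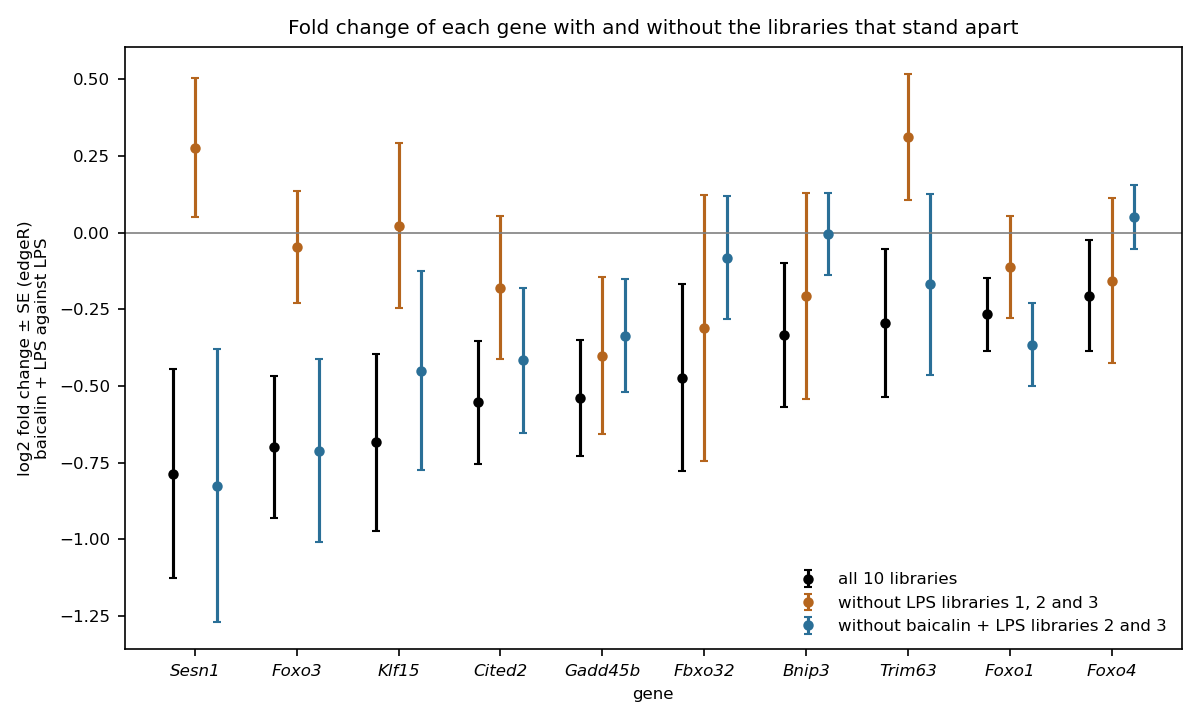
Log2 fold change of each gene, baicalin plus LPS against LPS, with its SE from edgeR, over all 10 libraries (black), without LPS libraries 1, 2 and 3 (brown) and without baicalin plus LPS libraries 2 and 3 (blue). Sesn1, Klf15 and Trim63 cross 0 without the 3 LPS libraries, and Foxo4 crosses 0 and Bnip3 reaches 0 without the 2 baicalin libraries.

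Left out together, LPS libraries 1, 2 and 3 took the count of negative fold changes from 10 to 7 of 10, against 45.8% of all genes in that fit, and the count at an unadjusted p under 0.05 from 6 to 0, against 7.25%. Dropping baicalin plus LPS libraries 2 and 3 gave 9 negative fold changes, against 52.4%, and 2 genes at that p (Foxo1 and Foxo3), against 5.43%. Leaving out LPS library 1 or LPS library 3 alone gave 2 genes at that p, and leaving out baicalin plus LPS library 1, 2 or 7 gave 3. Both sets of libraries were picked because they stood apart in these data.

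Around the 10 genes, lists of related genes leaned the same way without a call in edgeR. The lists cover FOXO factors, muscle ubiquitin ligases, FOXO targets, regulators of FOXO, KLF15 and glucocorticoid response, hypoxia response, p38 and p53, and mitophagy. Beyond the 10 genes they held 130 tested genes, of which 92 were negative and 38 positive in sign. Their median log2 fold change was -0.14. Over all genes tested, 50.6% were negative and the median was 0.00, which is also the background for the sign counts of each list. Of these 130, 0 passed in edgeR, 12 were lower and 2 higher at an unadjusted p under 0.05 (5.88% and 5.26% of all genes), and 7 had groups without overlap, all lower (1.58% of all genes). Among the 140 genes with the 10 included, DESeq2 called 6, all lower, and limma-voom with sample quality weights called 42, of which 34 were lower. Over all genes these fits called 1.58% (0.896% lower) and 17.7% (8.2% lower).

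**Figure D4:**
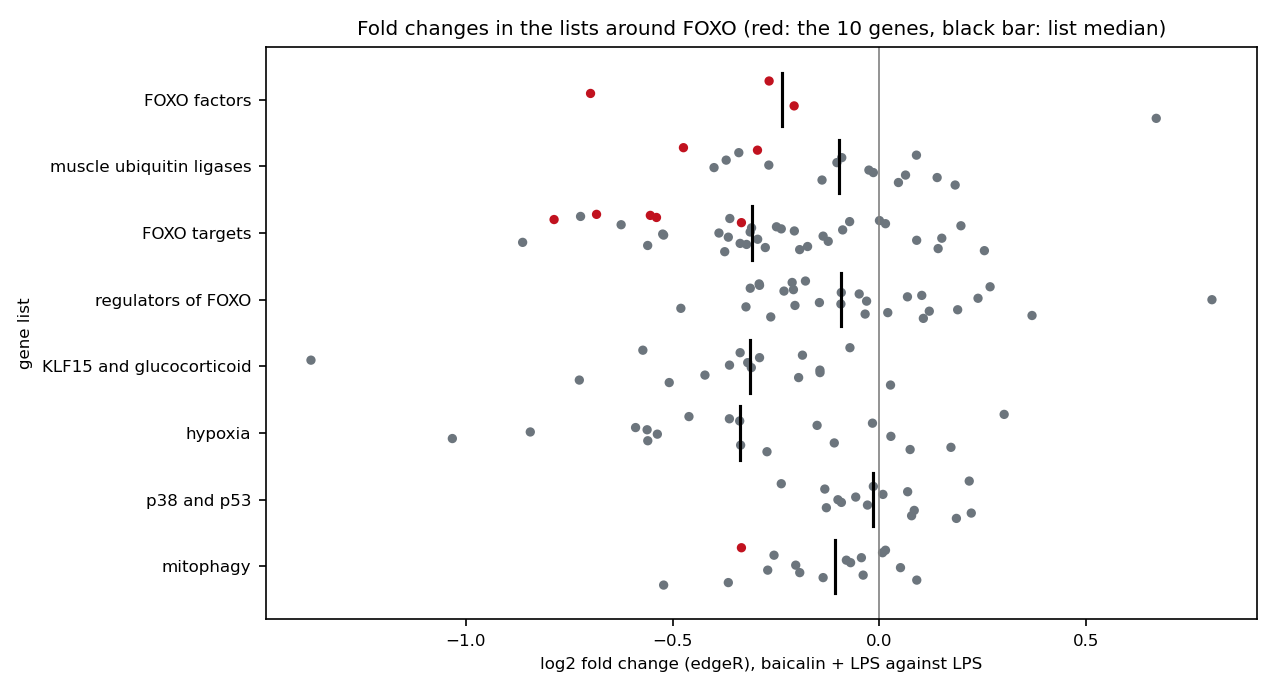
Log2 fold change of every tested gene in 8 lists, baicalin plus LPS against LPS, with the 10 genes in red and the median of each list as a black bar. The medians run from -0.34 for the hypoxia list to -0.01 for the p38 and p53 list, and none of the genes passed the adjusted threshold in edgeR.

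FOXO targets counted 37 genes, of which 30 had negative and 7 positive fold changes (median -0.31). At an unadjusted p under 0.05, 7 were lower and 0 higher, against 5.88% and 5.26% of all genes tested. These counts include genes of the 10, such as Gadd45b. Ulk1, the kinase that starts autophagy, had 96.3 ± 16.1 and 67.1 ± 8.30 CPM and a log2 fold change of -0.52 ± 0.13 (edgeR adjusted p = 0.298, DESeq2 adjusted p = 0.0384). Tle1, a transcriptional corepressor, had 8.24 ± 0.227 and 6.35 ± 0.689 CPM without overlap (-0.37 ± 0.11, edgeR adjusted p = 0.301, DESeq2 0.0397). Klf2, which endothelial cells induce under flow, had 37.7 ± 9.58 and 25.5 ± 4.29 CPM (-0.56 ± 0.17, adjusted p = 0.301). Of 10 endothelial markers, 8 had negative fold changes and 4 were lower at an unadjusted p under 0.05, and their sum was 701 to 1080 CPM in the LPS libraries and 610 to 909 CPM with baicalin. Their part in the Klf2 value was not tested.

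Of 16 muscle ubiquitin ligases, 11 had negative and 5 positive fold changes, with 0 at an unadjusted p under 0.05 in either direction. Fbxo40, a muscle F-box protein that targets the insulin adaptor IRS1, had 229 ± 34.7 and 189.9 ± 14.0 CPM (-0.27 ± 0.12, adjusted p = 0.451), and Fbxo31 had -0.37 ± 0.28. Trim32 had 8.55 ± 0.506 and 9.42 ± 0.571 CPM (0.14 ± 0.10). Of the mitophagy list, 12 of 16 tested genes had negative fold changes. Only 1, Ulk1, was lower at an unadjusted p under 0.05, against 5.88% of all genes tested. Gabarapl1, an autophagosome protein and FOXO target, had 85.3, 45.7, 47.5, 105 and 75.4 CPM in the baicalin plus LPS libraries, again lowest in libraries 2 and 3, and from 85.8 to 100.0 CPM with LPS alone. Its log2 fold change was -0.37 ± 0.21 (adjusted p = 0.554), and Fkbp8, another mitochondrial receptor for autophagy, had -0.20 ± 0.14.

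Regulators of FOXO counted 27 genes, 17 with negative and 10 with positive fold changes. At an unadjusted p under 0.05, 3 were lower and 2 higher, against 5.88% and 5.26% of all genes tested. The acetyltransferase genes Crebbp and Ep300, which encode CBP and p300 and serve FOXO factors, hypoxia-inducible factors and CITED2 alike, did not overlap between the groups. Crebbp had 36.1, 34.7, 42.0, 44.2 and 40.7 CPM in the LPS libraries and 26.7, 28.3, 28.2, 30.7 and 27.8 CPM with baicalin (-0.48 ± 0.09, edgeR adjusted p = 0.201, DESeq2 adjusted p = 0.00124). Ep300 had 69.4 ± 4.72 and 55.5 ± 5.57 CPM (-0.32 ± 0.10, adjusted p = 0.301). Skp2, a ligase subunit that degrades FOXO1, had 1.20 ± 0.194 and 2.10 ± 0.646 CPM (0.80 ± 0.25, adjusted p = 0.301), and Pdpk1, the kinase that activates AKT, had -0.31 ± 0.11 (adjusted p = 0.332). Akt1 and Akt2 had log2 fold changes of -0.18 ± 0.11 and -0.21 ± 0.10.

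In the KLF15 and glucocorticoid list, 15 of 16 genes had negative fold changes. At an unadjusted p under 0.05, 2 were lower and 0 higher, against 5.88% and 5.26% of all genes tested. Zbtb16, a zinc finger factor induced by glucocorticoids, had 182, 165, 214, 195 and 107 CPM in the LPS libraries and 85.7, 50.3, 27.1, 100.1 and 69.8 CPM with baicalin. The groups did not overlap, and baicalin plus LPS libraries 2 and 3 were again the lowest (-1.37 ± 0.32, edgeR adjusted p = 0.248, DESeq2 adjusted p = 0.00524). Kcnip2, a potassium channel subunit whose daily rhythm in the heart depends on KLF15 in mice, had 84.5 ± 33.4 and 51.1 ± 7.33 CPM (-0.73 ± 0.26, adjusted p = 0.348). The branched-chain amino acid genes Bckdhb and Bckdk had -0.42 ± 0.20 and -0.20 ± 0.11.

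In the hypoxia list, 14 of 18 genes had negative fold changes. At an unadjusted p under 0.05, 4 were lower and 0 higher, against 5.88% and 5.26% of all genes tested. Ddit4, which encodes the mTORC1 inhibitor REDD1 and also responds to glucocorticoids, had 86.9, 44.3, 70.3, 58.6 and 52.3 CPM in the LPS libraries and 22.8, 33.4, 25.3, 38.6 and 32.5 CPM with baicalin, without overlap (-1.03 ± 0.20, edgeR adjusted p = 0.201, DESeq2 adjusted p = 0.00124). Epas1, which encodes hypoxia-inducible factor 2 alpha, had 308 ± 14.8 and 224 ± 26.1 CPM without overlap (-0.46 ± 0.11, edgeR adjusted p = 0.248, DESeq2 0.0024). Hk2, the hexokinase of muscle, and Ndrg1 had -0.56 ± 0.20 and -0.54 ± 0.15. The p38 and p53 list was split, with 8 negative and 7 positive fold changes and 0 genes at an unadjusted p under 0.05. Its smallest p values belonged to Perp, Map3k4, Map2k3 and Mapk14, whose log2 fold changes were 0.22, -0.10, -0.13 and -0.09.

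Likeness of pattern was measured as the root-mean-square difference of mean-centred log2 CPM over the 10 libraries, against the other genes with a mean of at least 5 CPM. These were 9710 for Gadd45b, whose own mean is under that level, and 9709 for each of the other genes. Nearest to Foxo3 were Map4k2 (0.11), Hrc (0.14) and Flt1 (0.15), where Foxo3 itself deviated by 0.49 from its mean. Sesn1 was nearest to Wnk2 (0.18), Tecr (0.19) and Whrn (0.20). Foxo3 stood at rank 9 for Sesn1, while Sesn1 stood at rank 57 for Foxo3. Bnip3 was rank 2 for Fbxo32 at a difference of 0.20, while the nearest of the 10 genes to Bnip3 was Foxo4 at rank 15. Fbxo32 and Bnip3 both had Vldlr and Ptp4a3 among their 3 nearest. The third nearest gene to Bnip3 was Gabarapl1 (0.13). Foxo4 was nearest to Fxr2 (0.07), Pink1 (0.08) and Acads (0.08), and Klf15 to Pik3r1 (0.20), Mb (0.21) and A330023F24Rik (0.22). Trim63 was nearest to Max (0.14), Zfp691 (0.15) and Ndufs6b (0.16), and Cited2 to Slc38a3 (0.11), Lzts2 (0.14) and Cnksr3 (0.14). For Gadd45b the nearest were Hecw2 (0.14), Dgat2 (0.16) and Idh2 (0.17), and for Foxo1 Vps9d1 (0.08), Tubgcp2 (0.08) and Ric1 (0.08). Among the 10 genes themselves, the nearest to Klf15 was Cited2 at rank 9, and the nearest to Cited2 was Klf15 at rank 107. For Trim63 it was Cited2 at rank 178, and for Foxo4 and Gadd45b Bnip3 at ranks 227 and 264. For Foxo1 it was Cited2 at rank 4294.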

How the data were processed

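RNA was extracted from cardiac tissue with TRIzol and made into libraries with an ABclonal mRNA-seq kit, per the labels' protocols, and the submitters' processing notes name the build mm10. The sources used here do not state the aligner, counter or annotation. The authors deposited whole-number read counts per gene, without normalization, with 39.4 to 75.7 M counts per library. Even numbers made up 61.6% to 64.7% of values from 1 to 50, which independent fragments would not give. The deposited FPKM values equal the counts divided by a gene length and by the library total (largest relative deviation 4.4e-13) and served for levels between genes and as an alternative. All 20 columns were mapped, with 0 left over. Symbols came from GENCODE M21, which named 31076 identifiers.

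Counts were tested with edgeR 4.0.16 in R 4.3.3 (TMM, filter by group, robust quasi-likelihood F test, two-sided, Benjamini-Hochberg over 16850 genes, threshold 0.05). Levels are CPM scaled by TMM. The SE of a fold change came from the F statistic. Exact permutation tests used log2 CPM (prior count 0.5) over 252 assignments, with a smallest p of 0.00794. Alternatives were other scalings and filters, DESeq2 1.42.0, limma 3.58.1 with voom, limma on log2(FPKM + 1) and log2(FPKM + 0.1), leaving out each library, and a replicate block. The steps were tested on simulated counts of independent libraries, which held no sets of libraries that stand apart as these do. No 2 libraries of a group agreed within sampling noise (smallest chi-square per degree of freedom 15.2). The genes, lists and tests were chosen with earlier results of these data known. Named genes are the 10, the 4 of smallest p in each list and the 3 nearest patterns of each of the 10. Paralogs, Pdk4, Akt1 and Akt2, and any gene named elsewhere were chosen after values were seen.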

Additional observations from a re-analysis of the deposited data

Results flagged for a closer look

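In the groups of 5 libraries, 78 sets of values from 39 named genes were examined for 1 library far from the other 4, by a gap above 0.71 of the whole range. Chance gives this in about 1 of 20 sets, and 4 were found. Cited2 had 42.6 CPM in baicalin plus LPS library 5 against 23.4 to 26.9 CPM in the other 4 libraries of that group. Bckdhb had 24.7 CPM in the same library against 20.9 to 21.8 CPM. Klf2 had 54.2 CPM in LPS library 4 against 29.8 to 36.6 CPM in the other LPS libraries. Fkbp8 had 74.0 CPM in LPS library 4 against 46.5 to 51.4 CPM.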

How the results depend on the processing

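The 10 fold changes were negative in all 230 gene and setting pairs of the alternatives listed with the methods, and 225 of these stayed without a call. The 5 others came from limma-voom with sample quality weights (Foxo1 -0.41, Foxo3 -1.01, Klf15 -0.98, Cited2 -0.81 and Sesn1 -1.18). Over all genes, edgeR called 0, against 2 without a filter, 267 with DESeq2 and 2975 with quality weights. At an unadjusted p under 0.05 edgeR had 1878 genes. Of the lists around FOXO, 0 genes were called in edgeR, 6 with DESeq2 and 42 with quality weights, and of the 10 genes 5 with quality weights. Leaving out 1 library at a time, the number of the 10 genes lower at an unadjusted p under 0.05 ran from 2 to 6, and calls stayed at 0. In 2 alternatives added after the data were seen, that number was 0 without LPS libraries 1, 2 and 3 and 2 without baicalin plus LPS libraries 2 and 3. The first turned Trim63 to 0.31, Klf15 to 0.022 and Sesn1 to 0.28, and the second turned Foxo4 to 0.052. The cause was not tested. Library totals alone moved the median of all genes by 0.08. With the replicate block over the 4 numbers found in both groups, 0 of all genes, 0 of the 10 and 0 of the lists were called and 6 of the 10 were lower at that p (Bnip3, Cited2, Fbxo32, Foxo3, Gadd45b and Sesn1). Without the block the same 8 libraries also gave 6, with Foxo1 and Klf15 in place of Bnip3 and Fbxo32. Same-numbered libraries did not deviate together (correlations from -0.10 to 0.08). The library sets that stood apart also enter these deviations, so the check cannot decide whether the numbers pair libraries. Depth limits Gadd45b most, at under 7 CPM.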

Other observations

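Sesn1 and Foxo3 are neighbours on chromosome 10, with 273.4 kb between them and 3 genes of the table in that gap, of which 2 were tested. One of the 2, Armc2, which encodes a protein needed for sperm flagella, had 24.4 and 11.5 CPM on average in the LPS and baicalin plus LPS groups, a log2 fold change of -1.08 ± 0.46 (edgeR adjusted p = 0.411). Like Sesn1 and Foxo3 it was highest in LPS libraries 1, 2 and 3, a pattern held by 9.55% of the genes tested. The other, the pseudogene Gm9855, had -0.18 ± 0.42 at under 1 CPM and did not show that pattern. These genes were looked up after the values of Sesn1 and Foxo3 had been seen.

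Markers of blood and fat cells also differed between libraries. Of 5 tested erythroid genes, 5 had negative fold changes with an unadjusted p under 0.05 in edgeR, against 5.88% of all genes tested. None of the 5 passed adjustment. The summed level of all 6 listed erythroid genes ran from 13.2 CPM in LPS library 5 to 487 CPM in LPS library 4. With baicalin it ran from 21.5 to 72.7 CPM. In the same libraries that stood apart with baicalin, adipocyte markers summed to 14.2 CPM (library 2) and 12.6 CPM (library 3), with at most 4.90 CPM in the other 8. The part of these differences in the values of the FOXO genes was not tested.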
